A study of Mus musculus with 16 samples.

Results

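The 10 genes described here are the core of the mammalian circadian clock and its best known output factor: Arntl (also called Bmal1), Clock, Npas2, Per1, Per2, Per3, Cry1, Cry2, Nr1d1 and Dbp. They were chosen by symbol, through their Ensembl IDs in GENCODE M21, from 55414 genes in the deposited count table. All 10 were expressed well enough to be tested, among 16126 genes tested in all. Arntl (ENSMUSG00000055116) and Dbp (ENSMUSG00000059824) lie on chromosome 7 of build GRCm38, Per1 and Nr1d1 on 11, Npas2 and Per2 on 1, Cry2 on 2, Per3 on 4, Clock on 5 and Cry1 on 10. Kidney cortex came from male wild-type C57BL/6J mice, an inbred laboratory strain, and polyadenylated RNA was sequenced. Mice were kept sedentary or forced to run on a treadmill for 40 minutes at 70% of capacity, for 1 day (called 24 h here), for 1 week (1 wk) or for 2 weeks (2 wk), and each group had 4 libraries. The study asked how exercise training changes the kidney. Whether 24 h stands for the delay after a single run is unclear from the labels, and the sources used here do not give the hour of death or the delay since the last run. Sample titles also hold a letter that differs between sedentary and exercised libraries, and its meaning, which the labels leave unexplained, cannot be told apart from the running.

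In the clock, the proteins of Arntl and Clock, or of Arntl and the Clock relative Npas2, bind E-box sequences together and switch on the Per and Cry genes, Nr1d1 and Dbp. PER and CRY proteins then gather and block that pair, while NR1D1 (REV-ERB alpha) represses Arntl through ROR elements. Arntl and targets such as Nr1d1 and Dbp thus peak at roughly opposite times of day, which does not hold for every target. DBP carries the rhythm on to further genes through D-box sequences, and in the kidney many transport genes follow the clock.

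The start-site regions of the genes whose levels went together across libraries, described further on, are shown for the sequences these factors are known to bind. They are from RefSeq on build GRCm38.p6, which had an entry for 9 of the 10 genes, and each runs 5′ to 3′ on the gene's own strand over 300 bases. Capitals mark a ROR element core (TAGGTCA) in Arntl, D-boxes (TTATGTAA) in Per3 and an E-box (CACGTG) in Cry1.
Arntl, chr7:113207261-113207560, plus strand: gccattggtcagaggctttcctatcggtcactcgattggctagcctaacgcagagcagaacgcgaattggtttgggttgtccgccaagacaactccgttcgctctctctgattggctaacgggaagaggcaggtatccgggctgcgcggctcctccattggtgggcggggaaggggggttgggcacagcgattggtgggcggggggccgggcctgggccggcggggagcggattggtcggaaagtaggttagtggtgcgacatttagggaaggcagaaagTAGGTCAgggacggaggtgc
Dbp, chr7:45704997-45705296, plus strand: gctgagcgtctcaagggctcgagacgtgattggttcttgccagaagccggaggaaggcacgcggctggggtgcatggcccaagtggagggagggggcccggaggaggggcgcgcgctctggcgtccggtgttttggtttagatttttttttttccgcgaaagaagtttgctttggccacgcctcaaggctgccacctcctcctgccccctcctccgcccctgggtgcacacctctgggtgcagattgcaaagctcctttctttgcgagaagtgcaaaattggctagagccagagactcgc
Per3, chr4:151044616-151044915, minus strand: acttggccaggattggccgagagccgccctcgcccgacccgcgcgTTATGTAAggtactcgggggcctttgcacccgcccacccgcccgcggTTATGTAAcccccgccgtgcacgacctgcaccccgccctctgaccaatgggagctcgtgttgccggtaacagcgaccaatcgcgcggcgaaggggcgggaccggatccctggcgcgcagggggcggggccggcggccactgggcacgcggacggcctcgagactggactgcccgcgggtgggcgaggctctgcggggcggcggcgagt
Cry2, chr2:92434020-92434319, minus strand: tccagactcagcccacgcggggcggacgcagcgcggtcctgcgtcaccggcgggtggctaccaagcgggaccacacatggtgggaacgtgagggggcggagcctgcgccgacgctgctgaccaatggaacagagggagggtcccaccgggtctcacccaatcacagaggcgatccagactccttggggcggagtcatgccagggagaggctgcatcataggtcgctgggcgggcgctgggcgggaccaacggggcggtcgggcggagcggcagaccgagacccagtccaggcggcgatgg
Cry1, chr10:85185005-85185304, minus strand: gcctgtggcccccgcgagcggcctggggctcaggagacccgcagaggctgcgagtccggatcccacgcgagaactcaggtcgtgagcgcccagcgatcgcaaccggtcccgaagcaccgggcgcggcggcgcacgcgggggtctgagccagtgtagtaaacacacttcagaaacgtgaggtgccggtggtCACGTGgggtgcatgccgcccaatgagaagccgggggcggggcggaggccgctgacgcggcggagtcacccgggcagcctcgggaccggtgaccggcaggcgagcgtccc

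Both strands of every start-site region were searched for those 3 motifs and for the D-box variant TTACGTAA, and no 2 of these motifs overlapped in the regions shown. With the start site as position 0, the ROR core of Arntl lies at position 30 of the second of its 2 listed start sites. Per3 has D-boxes at -205 and -158. Cry1 has an E-box at -60, and Per1 has one at -166. The E-box stands in 7.15% of 32851 start-site regions of the genome, the D-box in 0.938%, its variant in 0.119% and the ROR core in 2.61%. No match was found in the windows of the other genes, including the one shown for Dbp, which says only that these letters are not in those windows.

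The 10 genes spanned a wide range of levels, compared here per kilobase of exon. A level is a gene's count relative to its library's total scaled by TMM (CPM), divided by exon length, and is given as mean ± SD over 16 libraries. Dbp had the highest level, 42.7 ± 9.94 CPM per kb, followed by Nr1d1 at 18.2 ± 3.37. The Per and Cry genes came next, with Per1 at 2.87 ± 1.13, Per2 at 2.44 ± 0.481, Cry2 at 2.40 ± 0.376, Cry1 at 1.42 ± 0.295 and Per3 at 1.27 ± 0.262. Of the activators, Clock stood at 1.51 ± 0.245, between Cry2 and Cry1, and Npas2 at 0.566 ± 0.191 and Arntl at 0.561 ± 0.167 were lowest. Only Dbp against Nr1d1, and Nr1d1 against Per1, were neighbours in this order whose ranges did not overlap. Cry2 exceeded Clock, and Per3 exceeded Npas2, in 16 of 16 libraries although their ranges overlapped, whereas Npas2 and Arntl were in this order in 8 of 16. Arntl rested on 90 to 353 counts a library and Npas2 on 57 to 287, against 4376 to 9184 for Dbp.

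**Figure D1:**
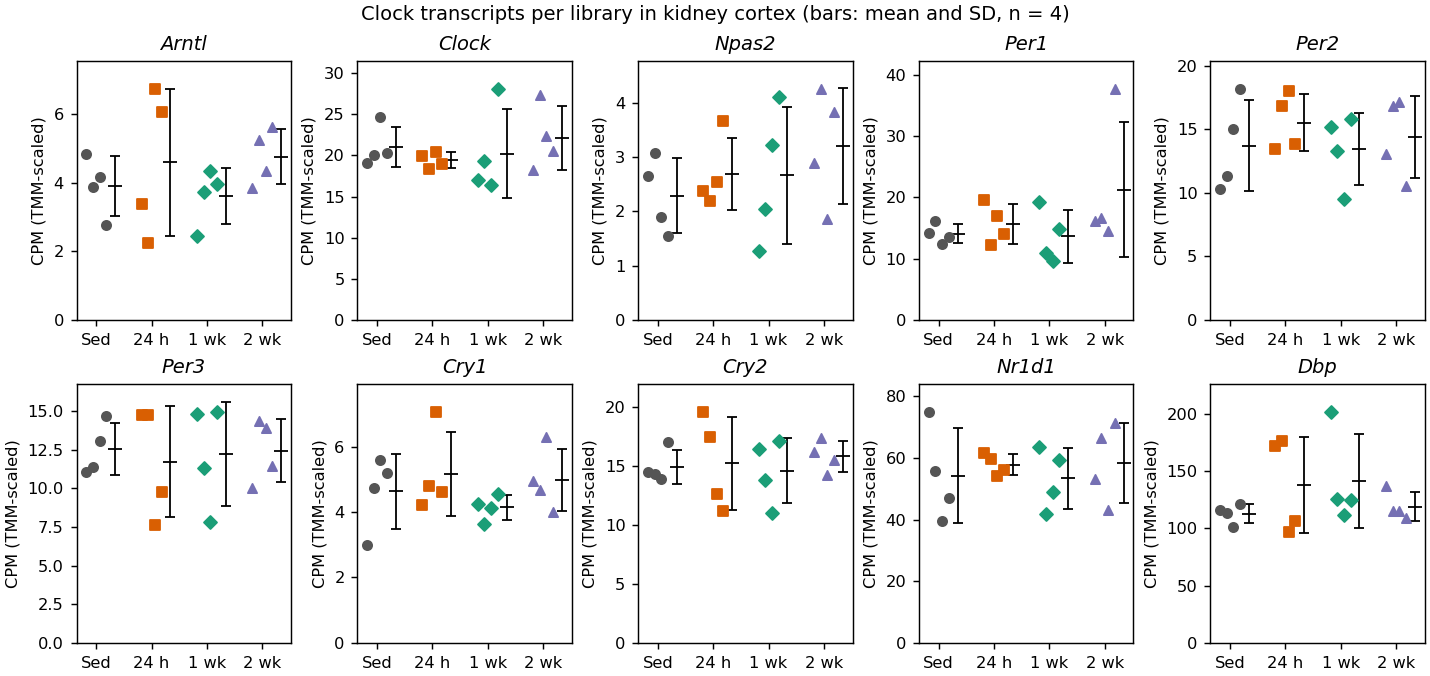
CPM (TMM-scaled, vertical axes) of the 10 clock genes in each of the 16 libraries, by group, with the group means. For each gene the libraries of every exercised group overlap those of sedentary mice, and a single 2 wk library stands at 37.8 CPM of Per1.

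None of the 10 genes passed the test in any comparison of the groups. In edgeR's quasi-likelihood test with Benjamini-Hochberg adjustment over 16126 genes, 0 of 10 were called at 24 h, 1 wk or 2 wk against sedentary mice, where 0% of all genes were called in each. At an unadjusted p under 0.05 the count was 0 of 10 at 24 h against 8.92% of all genes, 0 of 10 at 1 wk against 6.05%, and 1 of 10 (Per1) at 2 wk against 7.26%. For 0 of the 10 did the 4 exercised libraries lie wholly above or below the 4 sedentary ones, a pattern found in 7.21%, 4.22% and 4.91% of all genes at the 3 durations. DESeq2 and voom with quality weights also called 0 of the 10 in these comparisons, and few genes in all. Of all genes tested, DESeq2 called 86, 15 and 34 at 24 h, 1 wk and 2 wk, and voom called 59, 6 and 7. The labels do not say that each library came from a separate animal, so these p-values measure the spread between libraries.

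Among the activators, Arntl had 4.85, 3.87, 4.15 and 2.75 CPM in the 4 sedentary libraries, 3.38, 2.23, 6.73 and 6.04 at 24 h, 2.44, 3.73, 4.34 and 3.95 at 1 wk, and 3.85, 5.23, 4.33 and 5.61 at 2 wk. The 24 h group held both the highest and the lowest Arntl of all 16 libraries, with 1 library below the sedentary range, 1 inside it and 2 above it. The log2 fold changes of Arntl against sedentary mice were 0.23 ± 0.27 at 24 h (SE), -0.12 ± 0.27 at 1 wk and 0.28 ± 0.27 at 2 wk, with adjusted p from 0.828 to 0.979 in edgeR. Npas2 had 2.65, 3.07, 1.90 and 1.54 CPM in sedentary mice, 2.37, 2.18, 2.54 and 3.66 at 24 h, 1.26, 2.04, 3.22 and 4.11 at 1 wk, and 2.88, 4.25, 1.86 and 3.82 at 2 wk. Its 1 wk libraries alone covered nearly the whole range seen in the data, from 1.26 to 4.25 CPM. The largest difference of Npas2 was 0.49 ± 0.31 at 2 wk (edgeR adjusted p = 0.734). Clock varied least of the 10, between 16.4 and 28.1 CPM, and its log2 differences from sedentary mice lay between -0.11 and 0.08.

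Per1, the Per gene that also responds quickly to glucocorticoids and other signals, had 14.3, 16.1, 12.4 and 13.5 CPM in sedentary libraries, 19.6, 12.2, 16.9 and 13.98 at 24 h, and 19.3, 10.9, 9.70 and 14.9 at 1 wk. At 2 wk it had 16.2, 16.6, 14.5 and 37.8 CPM. Replicate 4 of the 2 wk group thus held more Per1 than any other library, and of the other 3 of that group, replicates 1 and 2 lay just above the sedentary maximum of 16.1 CPM and replicate 3 inside the sedentary range. The log2 fold change of Per1 at 2 wk was 0.60 ± 0.27 (1.51-fold; 95% interval 0.04 to 1.16), with an unadjusted p under 0.05 and an adjusted p = 0.657 in edgeR. Without that library it was 0.17, with an edgeR adjusted p = 0.927.

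Per2, the next repressor, had 10.3, 11.4, 15.01 and 18.2 CPM in sedentary libraries, 13.4, 16.8, 18.01 and 13.9 at 24 h, 15.2, 13.3, 9.50 and 15.8 at 1 wk, and 13.1, 16.9, 17.2 and 10.5 at 2 wk. Its sedentary libraries alone ran from near the lowest to the highest value of all. Per3, which modifies the clock more than it drives it, had 11.1, 11.3, 13.1 and 14.7 CPM in sedentary libraries, 14.7, 14.7, 7.65 and 9.77 at 24 h, 14.8, 11.3, 7.81 and 14.9 at 1 wk, and 10.03, 14.3, 13.9 and 11.4 at 2 wk. Its lowest values were in replicate 3 of the 24 h group and replicate 3 of the 1 wk group. Cry1, a strong repressor of the activator pair, had 2.98, 4.74, 5.59 and 5.205 CPM in sedentary libraries, 4.22, 4.81, 7.06 and 4.60 at 24 h, 4.24, 3.65, 4.14 and 4.56 at 1 wk, and 4.94, 4.67, 6.30 and 4.01 at 2 wk. Cry2, its close relative, had 14.5, 14.3, 13.9 and 17 CPM in sedentary libraries, 19.6, 17.5, 12.7 and 11.2 at 24 h, 16.5, 13.8, 11.1 and 17.1 at 1 wk, and 16.2, 17.4, 14.2 and 15.5 at 2 wk. The 24 h libraries of Per3 and Cry2 fell into a high pair, replicates 1 and 2, and a low pair, replicates 3 and 4. Across these 4 repressors the log2 differences from sedentary mice ran from -0.16 (Cry1 at 1 wk) to 0.18 (Per2 at 24 h).

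Nr1d1, the repressor of Arntl, had 54.3 ± 15.3 CPM in the sedentary group (SD, n = 4). The 24 h group had 57.9 ± 3.40, the 1 wk group 53.5 ± 9.92 and the 2 wk group 58.5 ± 12.9. The highest Nr1d1 value, 75.0 CPM, and the lowest, 39.5, both came from sedentary libraries. Dbp had 116, 113, 101 and 121 CPM in sedentary libraries, 172, 176, 96.4 and 106 at 24 h, 202, 126, 112 and 125 at 1 wk, and 137, 115, 115 and 109 at 2 wk. Replicates 1 and 2 at 24 h and replicate 1 at 1 wk stood above the rest, at 171.6 CPM or more where the next highest library had 137.2. The log2 fold change of Dbp was 0.28 ± 0.19 at 24 h and 0.32 ± 0.19 at 1 wk (edgeR adjusted p = 0.683 and 0.907), and 0.08 ± 0.19 at 2 wk. Without replicate 1 of the 1 wk group, the 1 wk value of Dbp was 0.10.

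**Figure D2:**
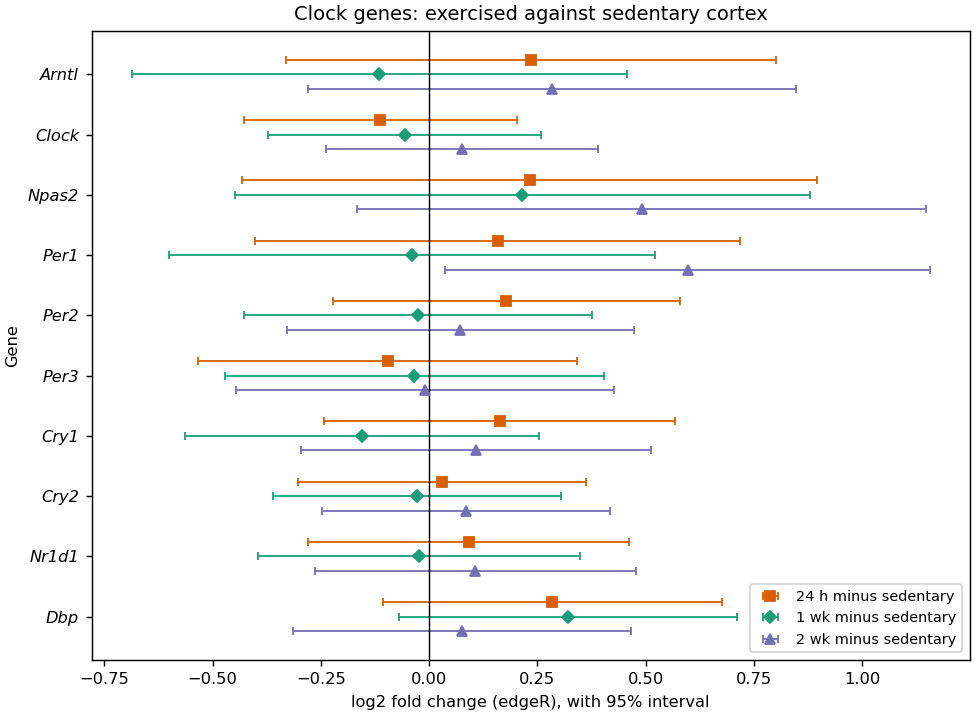
Log2 fold changes of the 10 clock genes against sedentary mice at 24 h, 1 wk and 2 wk (horizontal axis), with 95% intervals from the fit. Every interval spans 0 except that of Per1 at 2 wk, which runs from 0.04 to 1.16.

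Of the list as a whole, 8 of the 10 genes had a higher mean and 2 a lower one at 24 h, 2 a higher and 8 a lower at 1 wk, and 9 a higher and 1 a lower at 2 wk. The median log2 difference of the members was 0.16, -0.03 and 0.10 respectively, where that of all genes tested was -0.0046, 0.0039 and 0.0084. The 3 comparisons share the sedentary libraries. The 95% intervals of the 10 log2 differences ran from -0.53 to 0.90 at 24 h, from -0.69 to 0.88 at 1 wk and from -0.45 to 1.16 at 2 wk. Between exercised groups 0 of 10 were called as well, where 0% of all genes were called for 1 wk against 24 h, 0% for 2 wk against 1 wk and 0.0124% for 2 wk against 24 h. At an unadjusted p under 0.05 those 3 comparisons gave 0, 1 and 0 of the members, against 7.15%, 4.58% and 9.61% of all genes. The 1 was Per1, higher at 2 wk than at 1 wk by 0.64 ± 0.27 on the log2 scale (edgeR adjusted p = 0.868), and by 0.21 without replicate 4 of the 2 wk group. Libraries of the 2 groups did not overlap for 0 of 10 members in each of the 3, against 2.92%, 1.59% and 3.26% of all genes. Over the 4 groups together 0 of 10 were called against 0.0124% of all genes, and 0 of 10 had an unadjusted p under 0.05 against 8.73%.

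Libraries of the same group differed more in the clock genes than in most genes. The SD of log2 CPM within groups was lowest for Clock, 0.23, and highest for Npas2, 0.53. Arntl had 0.46, Per1 0.42, Per3 0.35, Per2 0.32, Dbp 0.31, Cry1 0.30, Nr1d1 0.30 and Cry2 0.25. The median over the 10 genes was 0.31, against 0.21 over all genes tested, and each of the 10 lay above that median. The SD of the 4 group means was 0.12 in the median member, beside that within-group value of 0.31. Means of 4 libraries vary less than single libraries, so these values cannot be compared directly. Since low counts spread more, the variation estimated by edgeR beyond counting error was also set against its trend at the same level. It exceeded the trend in 10 of 10 genes, as it did in 36.6% of all genes, from 1.13 times for Cry1 to 1.95 times for Per1, which had a variation of 25.99% where the trend gave 13.4%. Per1 ranked at percentile 98.65 of all genes in this ratio, Npas2 at 96.87, Arntl at 96.14, Dbp at 95.85, Per3 at 95.06, Nr1d1 at 94.46, Per2 at 93.12, Cry2 at 82.95, Clock at 81.44 and Cry1 at 78.51. This is a description, since the members were chosen with earlier results known.

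**Figure D3:**
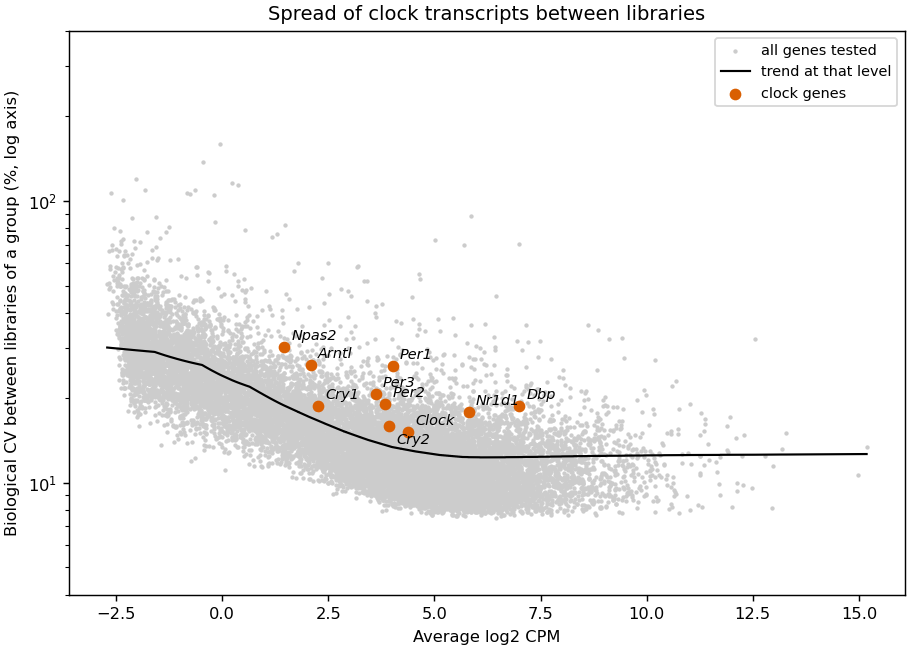
Variation between libraries of a group beyond counting error (coefficient of variation in %, log axis) against average log2 CPM for the 16126 genes tested in grey, their trend as a black line and the 10 clock genes as labelled points. The 10 points lie above the line, Per1 furthest at 25.99% against 13.4%.

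The differences between libraries were not the same for each clock gene but linked some of them in pairs. All 45 pairs were correlated on log2 CPM over the 16 libraries, with a two-sided permutation test of 100000 resamples and adjustment over the 45. After adjustment 3 pairs passed, and 9 pairs had an unadjusted p under 0.05. Arntl and Dbp went in opposite directions, with Pearson's r of -0.81 (permutation p = 0.00019, adjusted p = 0.006075) and Spearman's rho of -0.84 (permutation p = 0.00015, adjusted p = 0.00585). Per3 and Cry2 went together, with r = 0.80 (permutation p = 0.00027, adjusted p = 0.006075) and rho = 0.81 (permutation p = 0.00026, adjusted p = 0.00585). Per2 and Cry1 also went together, with r = 0.69 (permutation p = 0.00271, adjusted p = 0.04065) and rho = 0.71 (permutation p = 0.00327, adjusted p = 0.04905). The 16 libraries include 4 groups, so the pairs were also tested with each gene centred on its group means and libraries permuted within groups.

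The opposition of Arntl and Dbp was seen inside every group, with a negative r in 4 of 4. Such agreement was not particular to the pairs that passed. Clock and Dbp also had a negative r in 4 of 4, with r of -0.36 over the 16 libraries (permutation test, adjusted p = 0.4069). Centred on group means, r of Arntl and Dbp was -0.89 (permutation p = 0.00035, adjusted p = 0.01575). Without the 2 libraries farthest from the median of Arntl, r was -0.73 (permutation p = 0.00421), and the adjusted p of 0.06345 missed the threshold. The 3 libraries of highest Dbp had Arntl at 2.44, 2.23 and 3.38 CPM, and among the 13 libraries without them r was -0.66, given as a description. Leaving out each library in turn gave r between -0.87 and -0.76, with adjusted p from 0.0018 to 0.02565 by permutation. In the 24 h group the contrast was widest: replicates 1 and 2 had Arntl at 3.38 and 2.23 CPM with Dbp at 172 and 176, and replicates 3 and 4 had Arntl at 6.73 and 6.04 with Dbp at 96.4 and 106.

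Those 2 libraries, replicates 3 and 4 at 24 h, also had the highest summed level of the heat-shock genes Hspa1a, Hspa1b and Hsph1, at 385 and 243 CPM, where the other 14 had 113 to 201. Without both of them the correlation of Arntl and Dbp was -0.78 (permutation test, adjusted p = 0.02835). Without all 4 libraries of the 24 h group it was -0.72, and its adjusted p of 0.09844 by permutation missed the threshold. Leaving out the same 2 libraries turned the 24 h log2 difference of Arntl from 0.23 to -0.47, that of Npas2 from 0.23 to -0.0031, that of Cry1 from 0.16 to -0.031 and that of Per3 from -0.10 to 0.24. It moved that of Dbp from 0.28 to 0.63 (edgeR adjusted p = 1). The 2 libraries were chosen after seeing the data and held the highest Arntl of all, 6.73 and 6.04 CPM. A lower 24 h value of Arntl without them thus follows from that choice. Only replicates 1 and 2 then stood for the 24 h group. The part of heat-shock expression in these differences was not tested.

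**Figure D4:**
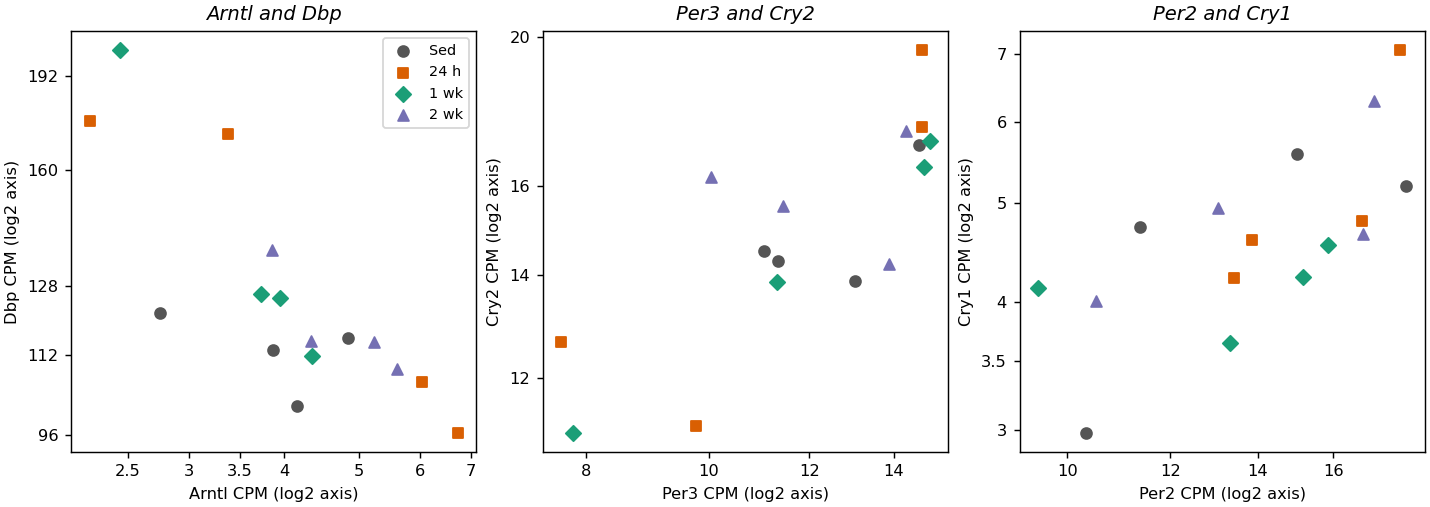
CPM of Arntl against Dbp, Per3 against Cry2 and Per2 against Cry1 (both axes on a log2 scale) in the 16 libraries, marked by group. Arntl is 6.73 CPM in the library with the lowest Dbp, 96.4 CPM, and 2.44 CPM in the library with the highest, 202 CPM.

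A per-kilobase ratio of Dbp to Arntl places the libraries along this axis. It was 60.1, 73.4, 61.4 and 111 in sedentary mice, 128, 198, 35.99 and 44.2 at 24 h, 208, 84.9, 64.7 and 79.5 at 1 wk, and 89.5, 55.2, 66.8 and 48.8 at 2 wk. The 24 h group thus held the lowest ratio and one of the 2 highest. The group medians of the ratio were 67.4, 85.9, 82.2 and 61.0 in the same order.

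Per3 and Cry2 had a positive r in 3 of 4 groups, and centring on group means left r at 0.81 (permutation p = 0.00913), with an adjusted p of 0.1027. Without the 2 libraries farthest from the median of Per3, r was 0.70 (permutation p = 0.00423, adjusted p = 0.06345). Leaving out each library in turn kept the adjusted permutation p for Per3 and Cry2 between 0.00405 and 0.03735. Per2 and Cry1 had a positive r in 4 of 4 groups, as did Clock and Cry1, whose r over the 16 libraries was 0.29. Centred on group means, Per2 and Cry1 had r of 0.66 (permutation p = 0.00861, adjusted p = 0.1027). Without the 2 libraries farthest from the median of Per2, r was 0.60 (permutation p = 0.02226, adjusted p = 0.1669). The adjusted permutation p for Per2 and Cry1 rose past the threshold in 8 of 16 settings that left out 1 library, reaching 0.09668 with r of 0.61 without sedentary replicate 1. The other 7 were sedentary replicates 3 and 4, 24 h replicates 1, 3 and 4, and 2 wk replicates 3 and 4. Without 24 h replicates 3 and 4 together, r was 0.78 for Per3 and Cry2 (permutation test, adjusted p = 0.02835) and 0.64 for Per2 and Cry1 (permutation test, adjusted p = 0.09729). Without all 4 libraries of the 24 h group, r was 0.76 for Per3 and Cry2 (permutation test, adjusted p = 0.087) and 0.64 for Per2 and Cry1 (permutation test, adjusted p = 0.1597), so neither passed. The single pair that passed there was Per2 with Per3, at 0.85 (permutation test, adjusted p = 0.0117). Over all 16 libraries Per2 and Per3 had r of 0.45 (permutation test, adjusted p = 0.3005), and without 24 h replicate 3 alone they had 0.78 (permutation test, adjusted p = 0.0132).

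The other 6 pairs with an unadjusted p under 0.05 missed the adjusted threshold, with adjusted p from 0.07059 to 0.1298 by permutation. Arntl went with Npas2 (r = 0.63) and against Per3 (-0.62) and Cry2 (-0.56). Dbp went with Cry2 (0.63) and Per3 (0.55), and Per1 went with Nr1d1 (0.60). Arntl and Npas2 alone of these passed when the 2 libraries farthest from the median of Arntl were left out (r = 0.77, permutation p = 0.0011, adjusted p = 0.0495). The repressor of Arntl, Nr1d1, showed r of 0.11 with Arntl (permutation p = 0.6875) and 0.27 with Dbp (permutation p = 0.3148). Between Per1 and Per2, r was -0.12 (permutation p = 0.6819).

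**Figure D5:**
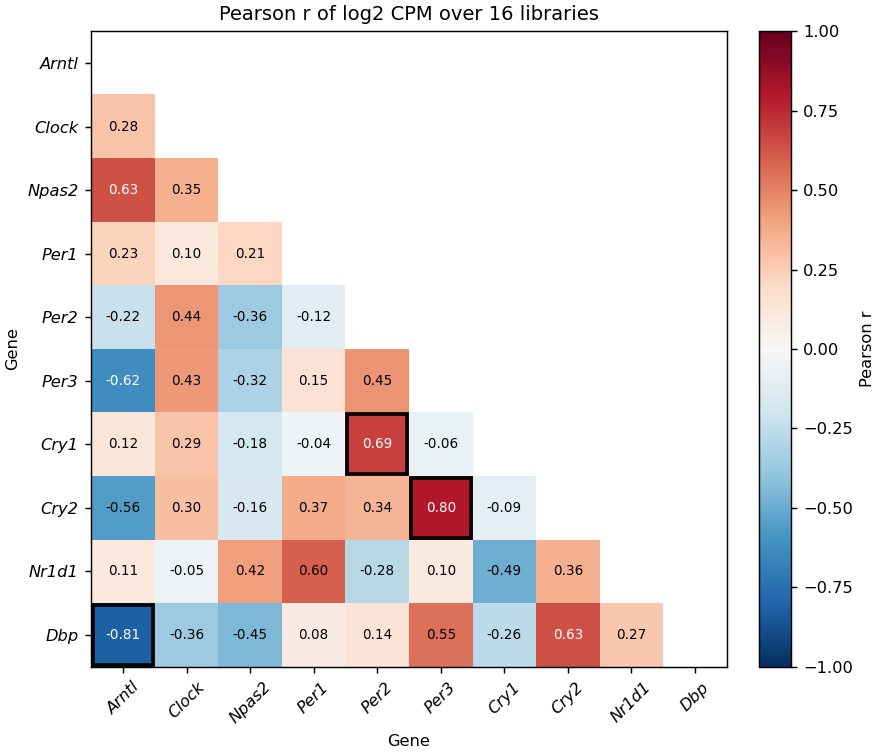
Pearson's r of log2 CPM over 16 libraries for the 45 pairs of clock genes, coloured from negative to positive. Arntl and Dbp are the most negative pair, -0.81, and Per3 and Cry2 the most positive, 0.80.

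Reads of neighbouring genes could enter some of these counts, since whether HTSeq used strand was not given in the sources used here. Sphk2, a sphingosine kinase gene on the opposite strand, shares 539 bases (18.01%) of the exons of Dbp, and over the 16 libraries its r with Dbp was 0.05. Thra, the thyroid hormone receptor alpha gene on the opposite strand, shares 263 bases (8.55%) of the exons of Nr1d1, and its r with Nr1d1 was 0.82, on levels of 56.7 to 73.0 CPM. Whether shared reads changed the level of Nr1d1 was not tested, and its level is given with that limit. Of the exons of Cry2 4.67%, and of those of Arntl 0.439%, lie over a non-coding antisense transcript, and the other 6 clock genes share no exon with an annotated neighbour.

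Other clock factors, in a list of 11 genes, were set against Arntl and Dbp as a description over the same 16 libraries. Tef and Hlf, which encode relatives of DBP, had r of -0.67 and -0.48 with Arntl and 0.62 and 0.43 with Dbp. Ciart, a further repressor of the activators, had -0.51 and 0.63. Nfil3, whose protein opposes DBP at the D-box, had 0.53 with Arntl and -0.57 with Dbp, and so lay on the side of Arntl. Nr1d2, the relative of Nr1d1, had -0.36 and 0.23. Among 10253 genes compared, those most like Arntl in log2 CPM over the libraries were Mapkapk3, a stress kinase gene (0.83), Cdkn1a, the p21 inhibitor of the cell cycle (0.77), Dtx4 (0.72), Efhd2 (0.70) and Uspl1 (0.69). Among the most opposed to Arntl were the vitamin transporter gene Slc5a6 (-0.78), and Ovol1, Sephs2 and Arhgef39 (-0.71 each). Slc5a6 (0.81), Hmcn2 (0.74), Zfp64 (0.72) and Pdcd4 (0.71) were among the most like Dbp, and Plod2 (-0.73), Emd (-0.68), Katnbl1 (-0.67), Zfp949 and Mcm5 (-0.63 each) most opposed to it. Slc5a6 thus stood at the Dbp end in both rankings, which are not separate, since Arntl and Dbp themselves had r of -0.81.

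By group, the same 11 clock factors gave 0 of 11 called at each duration, where 0% of all genes were called. At an unadjusted p under 0.05, 2 of 11 were found at 24 h, 1 at 1 wk and 0 at 2 wk, against 8.92%, 6.05% and 7.26% of all genes. Ciart had 2.51 ± 0.834 CPM in sedentary mice (SD, n = 4), 3.83 ± 1.36 at 24 h (edgeR adjusted p = 0.514) and 4.49 ± 1.13 at 1 wk (edgeR adjusted p = 0.548). Bhlhe40 and Rorb had an edgeR adjusted p from 0.565 to 0.986 at the 3 durations. At 24 h the libraries of Rora and Rorb lay wholly below the sedentary ones, where 7.21% of all genes had no overlap. Rorb rested on few reads, with 12 to 18 counts in sedentary libraries and 5 to 9 at 24 h. Of 11 kinases, ubiquitin ligases and partners that set the pace of PER and CRY turnover, 0 were called, against 0% of all genes. At 24 h, 1 wk and 2 wk, 2, 1 and 1 of them had an unadjusted p under 0.05. The shares of all genes were the same as above (8.92%, 6.05% and 7.26%). Csnk1e, a kinase gene for PER, had 6.76 ± 0.272 CPM in sedentary mice and 8.42 ± 1.32 at 24 h (edgeR adjusted p = 0.426), with no overlap, as in 7.21% of all genes. Fbxl21, a ligase gene for CRY, had 2.92 ± 0.509 and 1.95 ± 0.729 (edgeR adjusted p = 0.467). Timeless was lower at 2 wk by a log2 difference of -0.37 ± 0.16 (edgeR adjusted p = 0.644), with no overlap, as in 4.91% of all genes. Fbxw11 had an edgeR adjusted p from 0.76 to 0.936.

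Of 16 genes known to follow the clock, most of them transport or metabolic genes of the kidney, 0 were called, against 0% of all genes. An unadjusted p under 0.05 was found for 2 of 16 at 24 h, 3 at 1 wk and 5 at 2 wk, against 8.92%, 6.05% and 7.26% of all genes. The median log2 difference of the 16 at 2 wk was 0.14, with 13 higher and 3 lower, where the median of all genes was 0.0084. This list, like the other lists, was chosen with earlier results of these data known, so its counts and median are a description. Usp2, a ubiquitin protease gene driven by the clock, had 126 ± 6.70 CPM in the sedentary group (SD, n = 4), against 165 ± 14.4, 156 ± 32.2 and 162 ± 13.8 at the 3 durations. Its 24 h and 2 wk libraries lay wholly above the sedentary ones, with edgeR adjusted p of 0.305 and 0.436. Of all genes, 7.21% and 4.91% had no overlap in those comparisons. Scnn1a, the alpha subunit of the epithelial sodium channel, had 99.8 ± 14.8 CPM in sedentary mice and 144 ± 22.1 at 2 wk (log2 0.53 ± 0.12, edgeR adjusted p = 0.239). Slc12a3, the thiazide-sensitive salt transporter, had 404 ± 68.2 and 566 ± 57.5 (log2 0.49 ± 0.14, edgeR adjusted p = 0.36). The same gene is the distal tubule marker used below, and the part of distal tubule content in this difference was not tested. Hsd11b1, which makes active glucocorticoid inside cells, had 225 ± 36.7 CPM in sedentary mice, 151 ± 23.3 at 1 wk and 132 ± 30.2 at 2 wk (log2 -0.77 ± 0.16, edgeR adjusted p = 0.185). For Scnn1a, Slc12a3 and Hsd11b1 the 2 wk libraries did not overlap the sedentary ones, a pattern found in 4.91% of all genes. For Hsd11b1 this held at 1 wk as well, where all genes gave 4.22%. With DESeq2 the 2 wk adjusted p was 0.0168 for Scnn1a and 0.0048 for Hsd11b1, so that those calls depend on the tool. The call of Hsd11b1 was also made by edgeR without 2 wk replicate 3 (adjusted p = 0.0367) and with the replicate number as a block (adjusted p = 0.0126).

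Glucocorticoid target genes, 10 in number and including Per1, gave 0 called, against 0% of all genes. An unadjusted p under 0.05 was found for 3, 1 and 2 of them at 24 h, 1 wk and 2 wk. All genes gave 8.92%, 6.05% and 7.26%. The metallothionein genes Mt1 and Mt2 were higher at 24 h by log2 differences of 0.47 ± 0.17 and 0.41 ± 0.16, and Errfi1 was lower at -0.28 ± 0.11. Their edgeR adjusted p ranged from 0.429 to 0.488. The 24 h libraries of Fkbp5 lay wholly above the sedentary ones (edgeR adjusted p = 0.572), where 7.21% of all genes had no overlap.

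The libraries held 39766260 to 66852397 counts. Proximal tubule markers (Slc34a1, Lrp2, Slc5a2 and Kap) summed to 40103 to 55102 CPM, and the cortex-defining markers of podocytes and distal tubule were present in every library, while 2 skeletal muscle markers stayed at or below 0.102 CPM. Adrenal markers reached 2.35 CPM, fat markers 3.61 and leukocyte markers 10.6, all in summed level. Red cell markers ran from 197 to 965 CPM, and markers of inner medulla and urothelium ran from 18.9 to 83.3. Their part in the clock gene values was not tested. In bulk cortex, fewer cells of a type and less RNA per cell cannot be told apart.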

How the data were processed

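RNA was measured in 16 kidney cortex libraries of 4 groups, taken from the titles. The authors deposited 1 table of raw counts, with no normalization. The tools named are FastQC 0.10.1 for read quality and HTSeq 0.10.0 for counting, and the build is GRCm38, per the submitters' processing notes. The library kit marks strand, per the labels' protocols. Aligner, annotation release and strand setting were not given in the sources used here. Of 24 count columns, 8 match no sample and were not used. Names and exon lengths came from GENCODE M21.

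Group differences were fitted in R 4.3.3 by edgeR 4.0.16 (filterByExpr by group, TMM scaling, robust quasi-likelihood, all 16 libraries in 1 fit, Benjamini-Hochberg over 16126 genes, threshold 0.05). Values after ± are SD for CPM and SE for log2 fold changes. Pairs were correlated on log2 CPM (prior count 2) in Python 3.11.15 with numpy 2.4.6. Alternatives used DESeq2 1.42.0, voom with quality weights (limma 3.58.1), other scalings and filters, a replicate block, 2 groups only, and libraries left out. No 2 libraries of a group were alike within sampling noise: the chi-square over its degrees of freedom was at least 7.88 in 24 pairs. Scripts were tested on simulated counts.

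The members and lists were chosen with earlier results of these data known. All members are named, and from each of the 4 lists the 4 genes of smallest p over the groups. Values per library are given for members with an unadjusted p under 0.05, in a correlated pair, or of largest spread. The 5 genes most and least like Arntl and Dbp were ranked by r among genes whose mean log2 CPM reached 2. Some genes that this rule names are not reported here.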

Additional observations from a re-analysis of the deposited data

Results flagged for a closer look

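In groups of 4 libraries, a library was singled out when its gap to the nearest other exceeded the share of the group's range that Dixon's test allows at 95%. Of 108 groups of values checked, 9 gave such a library, and chance alone gives about 1 in 20.

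Per1 stood at 37.8 CPM in 2 wk replicate 4, above 14.5 to 16.6 in the other 3. Dbp stood at 202 CPM in 1 wk replicate 1, above 112 to 126, and the ratio of Dbp to Arntl per kilobase was 208 there, above 64.7 to 84.9. Timeless was low in 24 h replicate 2, at 2.31 CPM below 3.48 to 3.68, and in 2 wk replicate 1, at 1.99 below 2.68 to 2.79. Hsd11b1 was 223 CPM in 24 h replicate 4, above 169 to 171. Scnn1a was 96.9 CPM in 24 h replicate 3, below 113 to 115. The total count was 56957702 in sedentary replicate 1 and 66852397 in 2 wk replicate 2, each above the other 3 of its group.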

How the results depend on the processing

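The count of clock genes called was 0 in every comparison under every alternative run. Of 792 recomputed fold changes of these genes 745 kept their direction and 47 reversed. Most of these settings left out 1 library, often of neither group compared, which could hardly change a direction. The 745 therefore says little about how stable the directions are. The counts of all genes called moved. For 24 h, 1 wk and 2 wk against sedentary mice, 1 wk against 24 h, 2 wk against 1 wk, 2 wk against 24 h and the 4 groups, DESeq2 called 86, 15, 34, 59, 4, 39 and 163. Voom with quality weights called 59, 6 and 7 against sedentary mice, 1 for 2 wk against 1 wk, 4 for 2 wk against 24 h and 34 over the 4 groups. Without a filter these were 9 at 24 h, 5 at 2 wk, 8 for 2 wk against 24 h and 10 over the 4 groups, and with 1 CPM in 4 libraries, 4 for 2 wk against 24 h. With only the 2 groups compared they were 28 at 24 h and 2 at 2 wk. Of 24 same-numbered pairs of libraries 8 had an r over 0.1 (5 of the 6 of number 3 and 3 of the 6 of number 1), and 5 of 16 libraries were closest to their own number, so the numbers were not taken to pair the samples. The replicate block gave 5 at 2 wk, 11 for 2 wk against 24 h and 5 over the 4 groups. Without 24 h replicates 3 and 4, chosen after seeing the data, the counts were 2 at 2 wk, 0 for 2 wk against 24 h and 1 over the 4 groups. In these alternatives the cause was not tested.

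Voom reversed Cry2 at 24 h (-0.032), Npas2 at 1 wk (-0.13) and Per2 at 1 wk (0.015), and leaving out 24 h replicates 3 and 4 reversed, at 24 h, Arntl (-0.47), Npas2 (-0.0031), Per3 (0.24) and Cry1 (-0.031). Leaving out each library in turn gave 0 to 2 genes called for 1 wk against 24 h, 0 to 1 for 1 wk, 0 to 5 for 24 h, 0 to 7 for 2 wk against 24 h, 0 to 8 for 2 wk and 0 to 5 over the 4 groups. The log2 differences whose sign changed then ranged, at 24 h, from -0.0064 to 0.46 for Arntl, -0.23 to 0.063 for Per3, -0.024 to 0.27 for Cry1, -0.12 to 0.16 for Cry2 and -0.031 to 0.29 for Nr1d1. At 1 wk they ranged from -0.25 to 0.033 for Arntl, -0.25 to 0.031 for Clock, -0.078 to 0.45 for Npas2, -0.25 to 0.093 for Per1, -0.14 to 0.14 for Per2, -0.14 to 0.13 for Per3, -0.11 to 0.084 for Cry2 and -0.15 to 0.17 for Nr1d1. At 2 wk they ranged from -0.044 to 0.16 for Clock, -0.043 to 0.24 for Per2, -0.087 to 0.079 for Per3, -0.057 to 0.21 for Cry1 and -0.022 to 0.30 for Nr1d1. The pairs of clock genes past the threshold numbered 1 with group-centred values (Arntl and Dbp), 1 without the 2 farthest libraries (Arntl and Npas2), 1 without the 24 h group (Per2 and Per3), and 2 to 5 when each library was left out. For the other named genes 0 of 432 recomputed fold changes reversed and 4 were called, 3 of Hsd11b1 and 1 of Scnn1a, all at 2 wk. Arntl and Npas2 rest on the fewest counts, down to 90 and 57 in a library.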
